A study of Homo sapiens with 12 samples.

Results

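RNA sequencing libraries of A549 cells made to overexpress NR0B1 were compared directly with libraries of A549 cells in which NR0B1 was knocked down, the groups between which NR0B1 itself differed most in this series. The members are the 3 overexpression and 3 knockdown libraries, 6 of the 12 in the series. They were taken by their labels, and their values are sums, for each gene, of the expected counts of its Ensembl transcripts. A549 is a human lung adenocarcinoma line, labelled non-small cell lung cancer, and no group was treated. Knockdown cells carried a short hairpin RNA against NR0B1 (shNR0B1). The series is about glutathione metabolism and ferroptosis, in which cells die from iron-driven oxidation of their lipids.

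The arms have different controls. The overexpression control is labelled wild type for that arm (OEC), and the knockdown control is labelled wild type for the other arm and carries the name shNC. The remaining 6 libraries are these controls, 3 of each. A direct comparison of overexpression with knockdown therefore holds any difference between the arms besides that in NR0B1. For this reason every gene was also tested between the 2 controls. The vector, the hairpin sequence and whether a line came from 1 clone are not given here in the sources, nor is it stated that replicates were separate cultures, so p-values measure only the spread between these libraries.

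NR0B1 (DAX1) belongs to the orphan nuclear receptors and lacks a classical DNA-binding domain. It acts mainly as a corepressor of other nuclear receptors, such as those of the NR5A family, and is best known from adrenal and gonadal development. Through a mutated KEAP1, A549 cells keep NRF2, the main regulator of the oxidative stress response, constantly active, and NR0B1 is among the genes expressed at high levels in such lung cancer cells.

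The libraries held between 15049011 and 22797076 expected counts. Values are given as CPM, counts scaled to library size as set out under the processing of the data. A log2 difference is overexpression minus knockdown unless stated, SE is its approximate standard error, and genes with an adjusted p below 0.05 are described as called. The keratins KRT8 and KRT18 were at 1321 CPM or more and at 959.9 CPM or more in all 12 libraries, ALDH1A1 between 4246 and 8128 CPM, and CDKN2B, deleted in this line, at 0 in all 12. Of the leukocyte markers, CD3E was at 0 in all 12 and PTPRC in 11, but CD14 was at 0.84 to 9.28 CPM. EPCAM was low, between 0.445 and 5.03 CPM. The summed level of 10 fibroblast markers was 20.4 to 28.0 CPM in the knockdown and 2.34 to 13.2 CPM with overexpression, led by ACTA2 (mean 17.9 against 5.34 CPM, not called). LUM was at 1.53 to 2.42 CPM in the knockdown and 0.893 to 1.1 CPM with overexpression, and the defining markers DCN and PDGFRB did not exceed 0.157 and 0.103 CPM in any library. The part of these markers in the results was not tested. The summed level of 12 leukocyte markers ranged from 103 to 142 CPM with overexpression and from 50.2 to 150 CPM in the knockdown. It was 122 to 145 CPM in the overexpression control and 39.2 to 51.9 CPM in the knockdown control. Most of this sum came from members other than CD3E, PTPRC and CD14. Only 3 of the 12 were tested, of which ITGAM was called lower with overexpression and 0 were called higher. The median of these 3, as a log2 difference from the knockdown control mean, was 0.11, 1.76 and 0.37 in knockdown replicates 1 to 3. It was 1.38, 0.97 and 1.13 in overexpression replicates 1 to 3.

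Knockdown replicate 2 stood apart from its group. On the first principal component of the 12 libraries, which held 33.7% of the variance, knockdown replicates 1 and 3 lay at 32.7 and 45.9, near the knockdown controls at 43.7 to 45.5. Knockdown replicate 2 lay at -20.0, next to the overexpression libraries at -29.4 to -22.3 and on the same side as the overexpression controls at -44.7 to -35.3. On the second component (16.9% of the variance) it lay with its group, at -37.68 between knockdown replicates 1 and 3 at -44.55 and -33.54. The overexpression libraries lay there at 20.17 to 23.73. Its mean correlation with its own group, 0.912, was the lowest of the 12 libraries. The 1328 genes that differed between the controls by 2-fold or more place each library on a scale from 0 (the knockdown control mean) to 1 (the overexpression control mean). On this scale the overexpression libraries had median positions of 0.67, 0.63 and 0.59, and knockdown replicates 1, 2 and 3 of 0.42, 0.78 and 0.25. Results that rest on knockdown replicate 2 are given with and without it below. Overexpression control replicate 1 had the lowest correlation in its group, 0.937, and without it 2763 genes were called between overexpression and knockdown.

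NR0B1 (GRCh38 chromosome X, 30304206 to 30309598, minus strand) followed the labels in the 6 libraries. It stood at 98.9, 81.8 and 84.1 CPM in overexpression replicates 1 to 3, against 2.99, 3.31 and 5.84 CPM in knockdown replicates 1 to 3. The groups did not overlap, and knockdown replicate 2 was as low as the other knockdown libraries. The log2 difference was 4.45 (SE 0.45, adjusted p = 0.000221), a 21.9-fold range, and 4.34 (adjusted p = 0.000441) without knockdown replicate 2. An exact two-sided permutation test of these 6 values gave p = 0.1, the smallest that 3 against 3 libraries allow. Part of the range is present between the controls: NR0B1 was at 17.9, 60.1 and 55.2 CPM in the overexpression control and at 16.3, 21.1 and 13.3 CPM in the knockdown control, 2.63-fold higher in the former (log2 difference 1.40, adjusted p = 0.0189), with overlapping values.

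**Figure D1:**
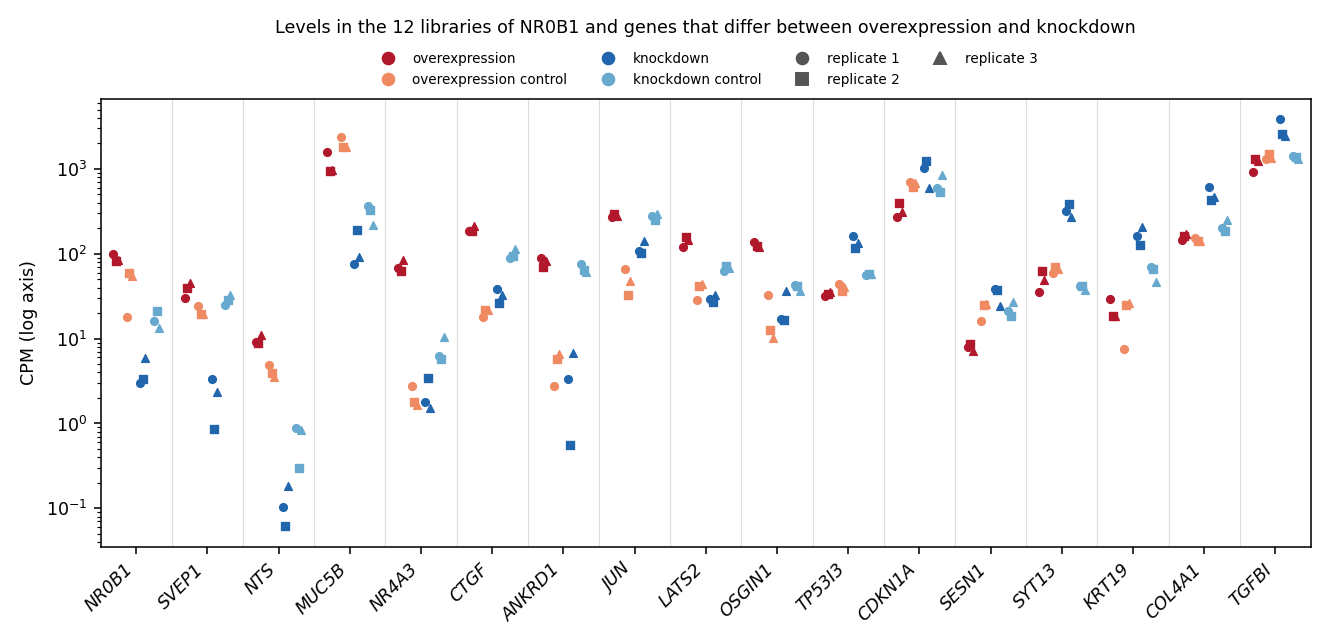
CPM on a log axis of NR0B1 and 16 other genes named in the text, 1 point per library, coloured by group and shaped by replicate number. NR0B1 lies between 81.8 and 98.9 CPM in the 3 overexpression libraries and between 2.99 and 5.84 CPM in the 3 knockdown libraries, and for CTGF, ANKRD1, JUN and LATS2 the knockdown control lies well above the overexpression control, the opposite order to that of overexpression and knockdown.

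Overexpression and knockdown differed at 2240 of 11908 genes tested (18.8%): 1149 (9.65%) were higher with overexpression and 1091 (9.16%) lower. The difference was at least 2-fold for 735 of them (374 higher, 361 lower). The controls of the arms differed at more genes, 3973 (33.4%; 2051 or 17.2% higher in the overexpression control and 1922 or 16.1% lower), of which 1328 reached 2-fold. Of the 2240 genes, 924 were also called between the controls, which is 41.2% of these calls and 23.3% of the calls between the controls. In 469 of the 924 the controls differed in the same direction, for 229 of them by more than overexpression and knockdown did, and in 455 they differed in the opposite direction. The other 1316 genes (11.1% of those tested) were not called between the controls, 607 (5.1%) higher and 709 (5.95%) lower. A gene that missed the threshold is not shown to be equal in the controls, and 232 of the 1316 had an unadjusted p below 0.05 there.

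Without knockdown replicate 2, 3335 genes were called (28.0%; 1735 higher and 1600 lower), and 1985 of these were among the 2240, all with the same direction. The controls then differed at 4920 genes (41.3%; 21.0% higher and 20.3% lower), and 1723 of the 3335 were called there too, 1127 in the same direction and 596 in the opposite. The share also called between the controls was thus 51.7% rather than 41.2%, and 35.0% rather than 23.3% of the calls between the controls. The shares over all genes rose as well, from 33.4% to 41.3% between the controls and from 18.8% to 28.0% between overexpression and knockdown. No control library was left out here, and the count between the controls changed because all libraries share a fit. Genes not called between the controls numbered 1612. The log2 differences between overexpression and knockdown were set against those between the controls across all genes tested, which are not independent replicates. Their Pearson correlation was 0.16 with all libraries and 0.40 without knockdown replicate 2. The count of called genes fell to 1396 without knockdown replicate 1, and to 1406, 1270 and 1272 without overexpression replicates 1, 2 and 3.

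**Figure D2:**
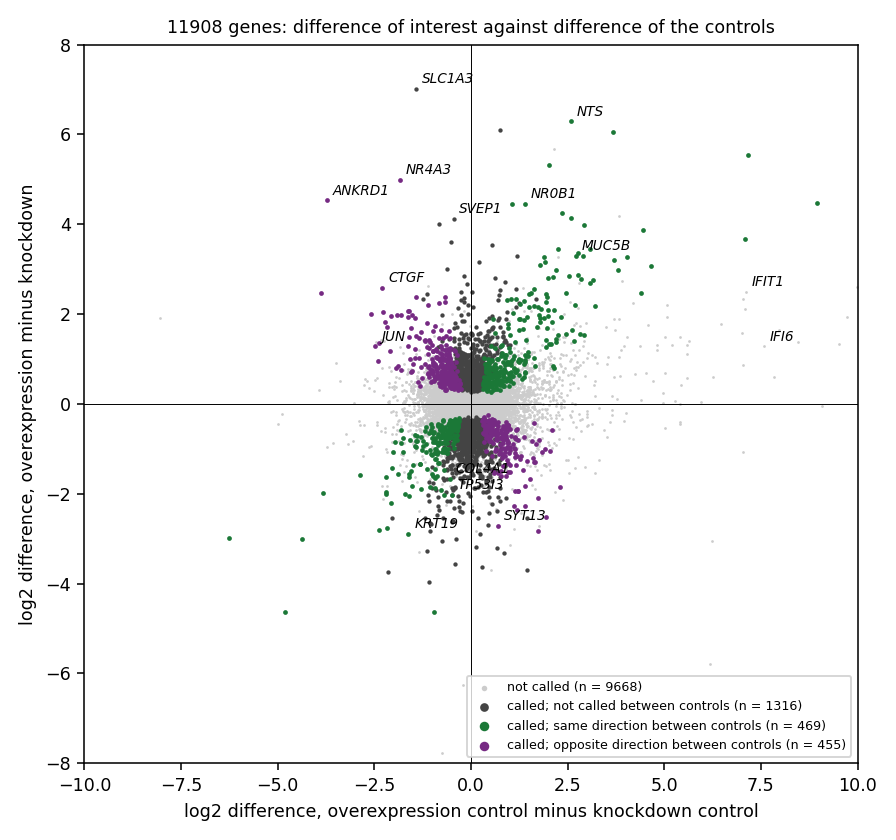
Log2 difference between overexpression and knockdown (vertical axis) against that between the overexpression control and the knockdown control (horizontal axis) for 11908 genes, with 6 genes outside the axes. Colours separate the 9668 genes not called, the 1316 called that were not called between the controls, the 469 called in the same direction there and the 455 called in the opposite direction, and the interferon-stimulated genes IFIT1 and IFI6 lie far to the right without being called.

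Among genes higher with overexpression and not called between the controls, the largest differences were in genes nearly silent in the knockdown. SVEP1, which encodes an extracellular matrix adhesion protein, stood at 30.0, 39.3 and 45.1 CPM with overexpression and at 3.35, 0.859 and 2.34 CPM in the knockdown (log2 difference 4.11, SE 0.37, adjusted p = 0.000113). Its controls were at 21.1 ± 2.56 and 28.7 ± 3.68 CPM (SD, n = 3; overexpression control first, here and below), so the knockdown libraries were the low ones. The glutamate transporter SLC1A3 was at 19.8, 7.56 and 5.95 CPM with overexpression and at 0, 0 and 0.246 CPM in the knockdown (adjusted p = 0.000477), and the kainate receptor subunit GRIK2 at 6.67, 5.29 and 5.56 CPM against 0, 0 and 0.246 CPM (adjusted p = 0.000753). For both genes the knockdown value rests on 4 counts in replicate 3, so no fold is given. Both controls expressed them, at 5.15 ± 1.83 and 13.8 ± 1.51 CPM for SLC1A3 and at 7.09 ± 4.27 and 4.23 ± 0.465 CPM for GRIK2.

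The same pattern, a knockdown below all 3 other groups, was seen for ITGBL1, a secreted protein with integrin-like repeats (4.95 ± 1.0 against 0.397 ± 0.295 CPM, controls 3.72 ± 1.81 and 5.35 ± 1.58 CPM, adjusted p = 0.00268), and for the phosphodiesterase PDE3A (47.0 ± 7.52 against 5.24 ± 2.34 CPM, controls 59.6 ± 57.6 and 51.0 ± 16.4 CPM, adjusted p = 0.00592). In contrast, 2 others were highest with overexpression. EGR3, an immediate early transcription factor, was at 13.7, 11.1 and 14.9 CPM with overexpression, at 2.47, 0.430 and 0.431 CPM in the knockdown and at most 0.521 CPM in all 6 control libraries (log2 difference 3.54, SE 0.69, adjusted p = 0.0058). Without knockdown replicate 1 its log2 difference was 4.92. BMP2, a secreted growth factor, was at 5.69 ± 1.59 against 0.577 ± 0.302 CPM (controls 2.30 ± 0.935 and 1.01 ± 0.0978 CPM, adjusted p = 0.00118).

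Genes lower with overexpression and not called between the controls were led by INKA2, an inhibitor of the kinase PAK4. All 3 overexpression libraries were at 0 and the knockdown libraries at 18.9, 14.8 and 7.44 CPM, at least 194-fold lower with the counts pooled over each group and the overexpression group set to a floor of 3 counts (adjusted p = 0.000421), while the controls stood at 4.19 ± 1.62 and 9.67 ± 4.92 CPM. The collagen COL1A1 was at 0.568, 0.893 and 3.60 CPM with overexpression against 43.1, 11.4 and 13 CPM (log2 difference -3.75, SE 0.81, adjusted p = 0.00975), with controls of 0.616 ± 0.479 and 2.76 ± 0.565 CPM, so here the knockdown was above all other groups. Single libraries weighed on its size, since the log2 difference was -2.86 without knockdown replicate 1 and -4.92 without overexpression replicate 3. IGFL2, an insulin growth factor-like secreted protein, was at 0.577 ± 0.412 against 5.84 ± 2.43 CPM and the riboflavin transporter SLC52A1 at 0.410 ± 0.244 against 5.41 ± 2.80 CPM (adjusted p = 0.00284 and 0.00986). For IGFL2 the log2 difference moved from -3.32 to -3.91 without overexpression replicate 2.

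Targets of p53, the stress-activated transcription factor that A549 cells retain in wild-type form, were called in 1 direction, lower with overexpression than in the knockdown. Of 30 measured targets 18 were lower (9.16% over all genes), 0 were higher and 12 did not pass, and 27 of the 30 differences were below 0. The median log2 difference was -0.75, against -0.02 over all genes tested. Of the 18, 11 were not called between the controls, where 5 targets were higher and 8 lower. Leaving out 1 library at a time gave between 13 and 19 lower; without knockdown replicate 2 it was 19, with 1 higher. DESeq2 and limma each gave 19 lower and 0 higher, and 0 targets were higher at an unadjusted p below 0.05.

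The oxidoreductase TP53I3 (chromosome 2 from 24077433 to 24085861) had the smallest adjusted p of the list. It stood at 32.2, 34 and 35.7 CPM with overexpression against 164, 118 and 133 CPM in the knockdown (log2 difference -2.02, SE 0.13, adjusted p = 2.83e-05). All 3 knockdown libraries were high, since the controls were at 40.5 ± 3.49 and 57.2 ± 0.814 CPM. The stress response gene SESN1 was low in overexpression instead: 8.02, 8.66 and 7.20 CPM against 38.0, 37.3 and 24.1 CPM, with controls of 22.1 ± 5.11 and 22.4 ± 4.29 CPM (log2 difference -2.06, adjusted p = 0.000421). CDKN1A, which encodes the cell cycle inhibitor p21, was at 273, 394 and 307 CPM against 1033, 1244 and 603 CPM (log2 difference -1.56, SE 0.26, adjusted p = 0.0026), and its controls were alike at 669 ± 53.5 and 664 ± 170 CPM. The antiproliferative gene BTG2 was 4.05-fold and the death receptor FAS 2.51-fold lower with overexpression (adjusted p = 0.000314 and 0.000297). Between the controls BTG2 was called in the same direction (log2 difference -0.70, adjusted p = 0.0233) and FAS was not called.

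Relative to each arm's own control, 0 of the 30 p53 targets were higher and 9 lower with overexpression (median log2 -0.30), and 9 were higher and 3 lower in the knockdown (median 0.44). Over all genes, 9.87% were called higher and 8.2% lower with overexpression, and 12.4% and 11.5% in the knockdown. These comparisons share libraries with the direct one and are given side by side only. Knockdown replicate 2 was with its group here: the median of the 30 targets, as a log2 difference from the knockdown control mean, was 0.29, 0.68 and 0.00 in knockdown replicates 1 to 3 and -0.58, -0.38 and -0.44 in overexpression replicates 1 to 3.

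Among matrix and integrin genes more were called lower than higher with overexpression. Of 39 measured, 15 were lower (9.16% over all genes), 2 higher (9.65%) and 22 did not pass (median log2 difference -0.40), and 9 of the 15 were not called between the controls, where 11 of the 39 were higher and 4 lower. The lower count ranged from 10 to 17 as single libraries were left out. The higher count was 0 without knockdown replicate 1, any overexpression replicate, overexpression control replicate 2 or knockdown control replicate 1, it was 1 without knockdown control replicates 2 or 3 or overexpression control replicate 3, and 4 without knockdown replicate 2. The basement membrane collagen COL4A1 was at 146, 162 and 169 CPM with overexpression against 611, 433 and 467 CPM (log2 difference -1.66, SE 0.15, adjusted p = 0.000123), and its partner COL4A2 at 251 ± 20.7 against 674 ± 124 CPM. COL4A1 was called in the same direction between the controls (log2 difference -0.54) and COL4A2 was not. In both genes the knockdown was the high group, the controls lying at 146 ± 6.59 and 212 ± 33.3 CPM for COL4A1 and at 306 ± 8.83 and 331 ± 39.7 CPM for COL4A2. The integrin subunit ITGAV was 2.18-fold lower (adjusted p = 0.000358) and the collagen-modifying enzyme PLOD1 2.16-fold lower (adjusted p = 0.000113), but PLOD1 differed between the controls by 0.80 in the opposite direction.

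Among 27 measured TGF-beta pathway and mesenchymal genes 7 were lower (9.16% over all genes), 4 higher (9.65%) and 16 did not pass. The list as a whole had no direction (median log2 difference 0.00). The count of higher genes was 1 and 2 without overexpression replicates 2 and 1, and that of lower genes 3 without overexpression replicate 1. The 4 higher genes were SKIL, TGFBR2, SNAI2 and SMAD7. SKIL was at 438 ± 73.1 against 245 ± 67.2 CPM (log2 difference 0.84, adjusted p = 0.0135, and 0.0505 without overexpression replicate 2). The members described next were lower with overexpression. The type I receptor TGFBR1 stood at 95.3, 124 and 118 CPM against 296, 295 and 263 CPM (log2 difference -1.34, SE 0.14, adjusted p = 0.000213), with controls of 88.4 ± 10.3 and 81.0 ± 9.76 CPM. The secreted target TGFBI stood at 911, 1325 and 1250 CPM against 3840, 2594 and 2419 CPM (adjusted p = 0.000976).

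AP-1 and immediate early genes, which encode transcription factors induced within minutes by growth and stress signals, were called higher more often than lower with overexpression. Of 24 measured, 11 were higher (9.65% over all genes), 2 lower (9.16%) and 11 did not pass (median log2 difference 0.91), with 8 to 15 higher as single libraries were left out and 2 lower in each case. Between the controls the order was turned round: 2 were higher and 13 lower in the overexpression control (median -0.68), and 8 of the members called between overexpression and knockdown were called in the opposite direction there. JUN, a subunit of AP-1 (chromosome 1 from 58780788 to 58784327), stood at 274, 297 and 280 CPM with overexpression against 109, 101 and 140 CPM in the knockdown (log2 difference 1.28, SE 0.21, adjusted p = 0.00265). Its controls were at 49.3 ± 16.9 and 273 ± 23.3 CPM, a log2 difference of -2.47. The level with overexpression therefore equalled that of the knockdown control within the spread, and the order of the 4 groups was overexpression and knockdown control, knockdown, overexpression control.

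The orphan nuclear receptor NR4A3 was high in overexpression alone. Its values were 68.8, 62.0 and 85.2 CPM, and 1.80, 3.44 and 1.54 CPM in the knockdown, with 2.08 ± 0.632 and 7.44 ± 2.58 CPM in the controls (log2 difference 4.99, SE 0.36, adjusted p = 3.59e-05). Its relative NR4A1 was at 172, 178 and 225 CPM against 9.85, 39.0 and 10.3 CPM (log2 difference 3.29, SE 0.48, adjusted p = 0.0012). Here knockdown replicate 2 was the highest knockdown library, and without it the log2 difference was 4.26. Unlike NR4A3, NR4A1 was also higher in the overexpression control (52.6 ± 13.8 against 7.09 ± 0.751 CPM). SRF, the serum response factor that drives many immediate early genes, was 2.31-fold higher at 107 ± 0.883 against 46.2 ± 12.7 CPM (adjusted p = 0.000839), and was called in the opposite direction between the controls (52.8 ± 4.22 and 84.2 ± 5.23 CPM).

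Targets of YAP and TEAD are the transcriptional output of the Hippo pathway. Of 24 measured, 10 were higher with overexpression (9.65% over all genes), 0 lower and 14 did not pass (median log2 difference 0.42), with 9 to 14 higher as single libraries were left out. The lower count was 1 without knockdown replicate 2 or overexpression control replicate 1 and 2 without knockdown replicate 3. At an unadjusted p below 0.05, 1 was lower, and DESeq2 and limma each gave 0. Between the controls 2 were higher and 16 lower (median -0.71), and 7 of the 10 were called in the opposite direction there. The matricellular growth factor CTGF (chromosome 6 from 131948176 to 131951373) was at 184, 184 and 215 CPM against 38.6, 26.0 and 32.8 CPM (log2 difference 2.58, SE 0.16, adjusted p = 2.83e-05), with controls of 20.4 ± 2.0 and 99.6 ± 12.6 CPM. Its relative CYR61, shown because it is the textbook companion of CTGF, was at 364, 457 and 477 CPM against 128, 50.4 and 145 CPM (adjusted p = 0.00618), but the knockdown control was higher than both at 698 ± 98.1 CPM.

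ANKRD1, a muscle and stress-induced cofactor and YAP target, was at 90.4, 70.5 and 83.3 CPM against 3.30, 0.552 and 6.70 CPM (log2 difference 4.53, SE 0.59, adjusted p = 0.000756). Without knockdown replicate 3 the log2 difference was 5.36. The controls stood at 5.04 ± 2.04 and 66.7 ± 7.57 CPM, so overexpression was near the knockdown control and the knockdown near the overexpression control. LATS2, the Hippo kinase that is itself induced by YAP, was at 121, 158 and 145 CPM against 29.6, 27.2 and 32.5 CPM (log2 difference 2.24, SE 0.17, adjusted p = 3.59e-05). For LATS2 overexpression was above all other groups, since the controls were at 38.1 ± 8.05 and 67.6 ± 4.20 CPM. IGFBP3, a carrier of insulin-like growth factors, differed from these genes: it was at 1146 ± 58.6 against 305 ± 90.1 CPM, and the controls differed by as much and in the same direction (1097 ± 498 and 294 ± 19.0 CPM).

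Other genes called in opposite directions between the controls included the secreted peptide ADM, at 84.6, 110 and 104 CPM with overexpression against 24.7, 21.1 and 30.7 CPM (log2 difference 1.96, controls -2.08), and the keratin KRT80 (log2 difference 1.99, controls -1.90). Both had levels with overexpression nearer to the knockdown control than to their own. STC2, a secreted glycoprotein of the ATF4 stress response, was 3.84-fold higher (adjusted p = 0.00398), with controls of 85.5 ± 50.2 and 264 ± 12 CPM. In the other direction, the cytokine signalling inhibitor CISH was at 0.497, 0.481 and 0.704 CPM against 5.15, 3.87 and 2.95 CPM (log2 difference -2.82, controls 1.73). The synaptotagmin SYT13, a vesicle trafficking protein, was at 35.9, 63.1 and 48.7 CPM against 318, 387 and 269 CPM (log2 difference -2.72, SE 0.20, adjusted p = 3.59e-05). Its controls, at 65.2 ± 6.05 and 40.0 ± 2.58 CPM, were both far below the knockdown.

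Some genes with large differences between overexpression and knockdown differed in the same direction between the controls. The neuropeptide NTS was at 9.09, 8.79 and 11 CPM against 0.103, 0.0614 and 0.185 CPM (log2 difference 6.29, SE 0.49, adjusted p = 4.69e-05), and the controls at 4.09 ± 0.674 and 0.672 ± 0.326 CPM. The knockdown values rest on few counts, so the size is uncertain. The 4 groups were ordered like those of NR0B1 itself, from overexpression to overexpression control, knockdown control and knockdown. The airway mucin MUC5B was at 1595, 950 and 968 CPM against 76.8, 189 and 91.3 CPM (log2 difference 3.30), but it was highest in the overexpression control, at 1997 ± 322 CPM. The water channel AQP3 was at 66.1 ± 20.1 against 1.02 ± 1.04 CPM, with controls of 67.2 ± 42.2 and 5.29 ± 1.84 CPM, and its log2 difference of 6.05 became 7.15 and 5.42 without knockdown replicates 2 and 1.

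Lower in both comparisons were the epithelial keratin KRT19, at 29, 18.6 and 18.6 CPM against 161, 128 and 205 CPM (log2 difference -2.90, SE 0.41, adjusted p = 0.00101; controls -1.62), and RTN4RL1, a Nogo receptor relative, at 0.845 ± 0.196 against 21.1 ± 6.65 CPM (log2 difference -4.63; controls -0.96, adjusted p = 0.0494). For both, the knockdown exceeded the knockdown control. The adhesion protein FLRT2 had the reverse arrangement: its log2 difference of -2.99 was smaller than the -6.25 between the controls, and knockdown and knockdown control were alike at 9.5 ± 3.57 and 9.90 ± 2.07 CPM.

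The calls of the interferon response depended on knockdown replicate 2. Interferon-stimulated genes are antiviral effectors switched on by interferon signalling at promoter elements with paired GAAA blocks. Of 32 measured genes edgeR called 0 between overexpression and knockdown in either direction with all libraries, although the median log2 difference was 1.25. At an unadjusted p below 0.05, 1 gene was higher and 0 lower. DESeq2 called 0, and limma called 6 higher and 0 lower. Without knockdown replicate 2, 30 of the 32 were higher (background 14.6% of genes higher) and the median was 4.22, and in that fit all 30 were called in the same direction between the controls. Between the controls 26 were higher and 0 lower with all libraries (median 3.82).

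In single libraries the list had 2 levels. Its median log2 difference from the knockdown control mean was 4.47, 4.04 and 4.25 in overexpression replicates 1 to 3 and 4.32, 3.48 and 2.85 in the overexpression controls, and it was 0.17 and -0.04 in knockdown replicates 1 and 3 but 4.45 in knockdown replicate 2. IFIT1, a sensor of foreign RNA caps (chromosome 10 from 89392546 to 89406486), stood at 809, 535 and 628 CPM with overexpression and at 5.31, 343 and 2.15 CPM in the knockdown, while the knockdown controls were at 1.23 to 2.0 CPM. IFI6 stood at 491, 306 and 330 CPM against 1.49, 461 and 1.97 CPM, and ISG15, a ubiquitin-like modifier, at 401, 228 and 289 CPM against 7.53, 412 and 4.49 CPM. Knockdown replicate 2 is thus the only knockdown library with the high level, within or above the overexpression values for IFI6 and ISG15 and below them for IFIT1. None of these 3 genes was called with all libraries (adjusted p of 0.229, 0.572 and 0.562 for IFIT1, IFI6 and ISG15), and without that library their log2 differences were 7.44, 7.77 and 5.66 (adjusted p = 0.000123, 4.08e-06 and 4.67e-05). Which of the levels belongs to the knockdown cannot be told from these 3 libraries.

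The upstream sequences of these genes are shown because they share the element by which interferon-stimulated genes are recognised. They are from RefSeq (GRCh38.p14), end just before the annotated start site and are written 5′ to 3′ on the gene's strand. Capitals mark each match to the core of the interferon-stimulated response element, searched on both strands as GAAA, any 2 bases and GAAA again, which reads TTTC, any 2 bases and TTTC on the other strand.
IFI6: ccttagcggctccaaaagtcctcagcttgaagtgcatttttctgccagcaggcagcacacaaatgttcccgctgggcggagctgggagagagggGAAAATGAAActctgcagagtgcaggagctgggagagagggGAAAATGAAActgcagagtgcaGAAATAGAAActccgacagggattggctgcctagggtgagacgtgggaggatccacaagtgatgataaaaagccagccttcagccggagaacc
IFIT1: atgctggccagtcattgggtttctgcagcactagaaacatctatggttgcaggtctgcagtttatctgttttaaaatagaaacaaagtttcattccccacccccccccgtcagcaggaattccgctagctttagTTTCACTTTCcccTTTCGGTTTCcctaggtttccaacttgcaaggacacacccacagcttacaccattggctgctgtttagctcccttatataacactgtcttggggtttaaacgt
ISG15: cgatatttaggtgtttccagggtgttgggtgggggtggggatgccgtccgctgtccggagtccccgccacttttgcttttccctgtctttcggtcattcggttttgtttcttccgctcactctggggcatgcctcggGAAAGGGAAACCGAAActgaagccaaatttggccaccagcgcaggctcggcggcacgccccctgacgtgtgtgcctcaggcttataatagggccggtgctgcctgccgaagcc
The first lies at chr1:27672193-27672442 on the minus strand, the second at chr10:89392373-89392622 on the plus strand and the third at chr1:1013247-1013496 on the plus strand, where matches overlap. Over promoter windows that also take in the first bases of the transcript, 15 of the 24 interferon response genes with a RefSeq entry held the motif (62.5%), against 2.87% of 9777 tested genes with an entry and 3.65% of all 27305 windows. A match describes these letters and is not evidence of binding.

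The AP-1 element did not separate the groups of called genes. TGANTCA, on either strand, was in 4.34% of the 9777 windows, in 6.03% of those of genes higher and 6.34% of those of genes lower that were not called between the controls, and in 4.31% of genes higher with the opposite direction there. The motifs AAAGGTCA and CAAGGTCA, bound by NR4A and NR5A receptors, were in at most 0.624% of the windows of these 3 sets. Over the 9777 windows they were in 0.757% and 0.675%. The cyclic AMP response element TGACGTCA was in 16 of 232 windows (6.9%) of genes higher with the opposite direction in the controls, against 3.43% of the 9777. Among genes lower with the opposite direction in the controls, TGANTCA was in 5.06%, TGACGTCA in 1.27%, CAAGGTCA in 1.9% (3 windows) and AAAGGTCA in 0 of 158 windows. ANKRD1 is an example of a TGANTCA match. The match reads TGATTCA, not the usual AP-1 element, and is shown in capitals in the upstream sequence at chr10:90921088-90921337 on the minus strand.
ANKRD1: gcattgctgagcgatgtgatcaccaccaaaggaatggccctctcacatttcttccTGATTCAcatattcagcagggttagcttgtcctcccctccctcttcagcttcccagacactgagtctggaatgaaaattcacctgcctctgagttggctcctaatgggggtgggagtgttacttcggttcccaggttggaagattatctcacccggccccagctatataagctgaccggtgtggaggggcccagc

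**Figure D3:**
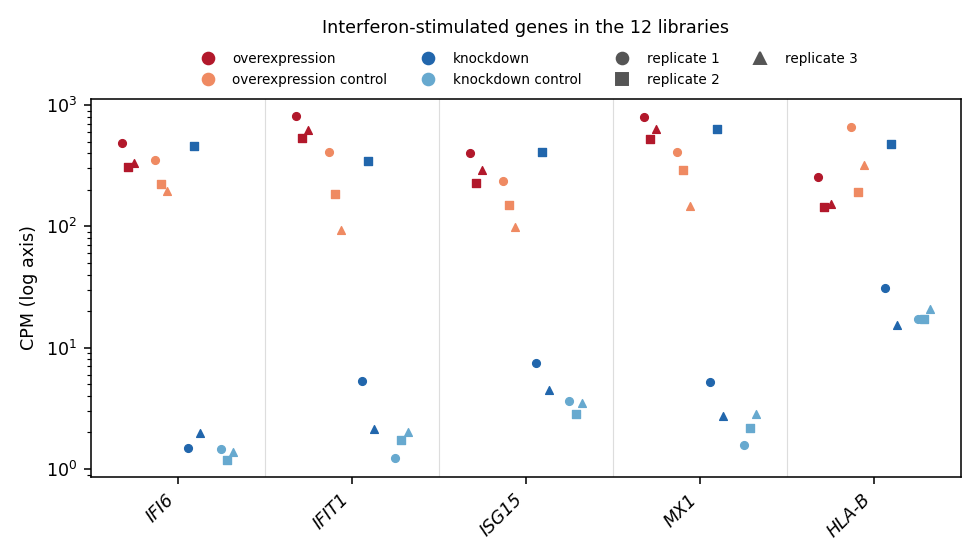
CPM on a log axis of 5 interferon-stimulated or antigen presentation genes, 1 point per library, coloured by group and shaped by replicate number. Knockdown replicate 2 (square) lies with the overexpression arm while knockdown replicates 1 and 3 lie with the knockdown control, as for IFI6 at 461 against 1.49 and 1.97 CPM.

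Genes of antigen presentation by MHC class I followed the same division. Of 17 measured, 0 were higher and CALR was lower with all libraries, while 14 were higher and 1 lower without knockdown replicate 2, and between the controls 14 were higher and 0 lower. With all libraries 0 were higher at an unadjusted p below 0.05 and by DESeq2 and limma. HLA-B, whose reads can be shared with other class I genes, was at 257, 144 and 154 CPM with overexpression and at 31.2, 473 and 15.3 CPM in the knockdown. Its log2 difference was 0.09 (adjusted p = 0.958), 2.99 (adjusted p = 0.00253) without knockdown replicate 2, and below 0 without knockdown replicate 1 (-0.40) or 3 (-0.45) or overexpression replicate 1 (-0.22).

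Several other lists passed mainly without that library. Among 27 NF-kB and cytokine genes 2 were higher with all libraries (9.65% over all genes) and 11 without it (14.6%), among 20 feedback genes of ERK signalling 3 and 11, and among 34 ATF4 targets 5 and 11. Of these 11, in the fit without that library, 8 NF-kB genes were called in the same direction between the controls and 0 in the opposite, 5 and 2 ERK feedback genes, and 0 and 8 ATF4 targets. For ATF4 targets 8 were higher without overexpression control replicate 1. Genes called lower by edgeR in these 3 lists numbered 0 with all libraries, 1 each at an unadjusted p below 0.05, 1, 0 and 1 by DESeq2 and 0, 0 and 1 by limma. Without knockdown replicate 3 they numbered 3, 1 and 2, and for ATF4 targets 1 without knockdown replicate 2 or overexpression control replicates 1 or 3. Lower with overexpression were 4 of 74 cytosolic ribosomal protein genes with all libraries and 43 without knockdown replicate 2 (background 13.4% of genes lower), and 2 of 38 S phase and mitosis genes with all and 20 without it. The ribosomal count was 1 without knockdown replicate 1 or any overexpression replicate and 11 without overexpression control replicate 1. The S phase count was 1 without knockdown replicates 1 or 3, any overexpression replicate or any knockdown control. With all libraries the 2 lower genes were TYMS and CDKN1A, a cell cycle inhibitor also counted among the p53 targets. TYMS overlapped between overexpression and knockdown and lost its call in 10 of the 21 alternatives. For S phase genes the medians of the list by library, as log2 differences from the knockdown control mean, were 0.64, -0.40 and 0.56 in knockdown replicates 1 to 3 and 0.06, -0.02 and -0.01 in overexpression replicates 1 to 3, so that knockdown replicate 2 was on the other side of overexpression from its group. The chemokine CXCL5, one of the NF-kB genes that passed in both fits, was at 1657 ± 41.3 against 213, 772 and 291 CPM (log2 difference 1.96, adjusted p = 0.00507, and 2.72 without knockdown replicate 2). Its controls differed by as much in the same direction (1715 ± 128 and 433 ± 44.2 CPM, log2 difference 1.99, adjusted p = 0.00289).

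**Figure D4:**
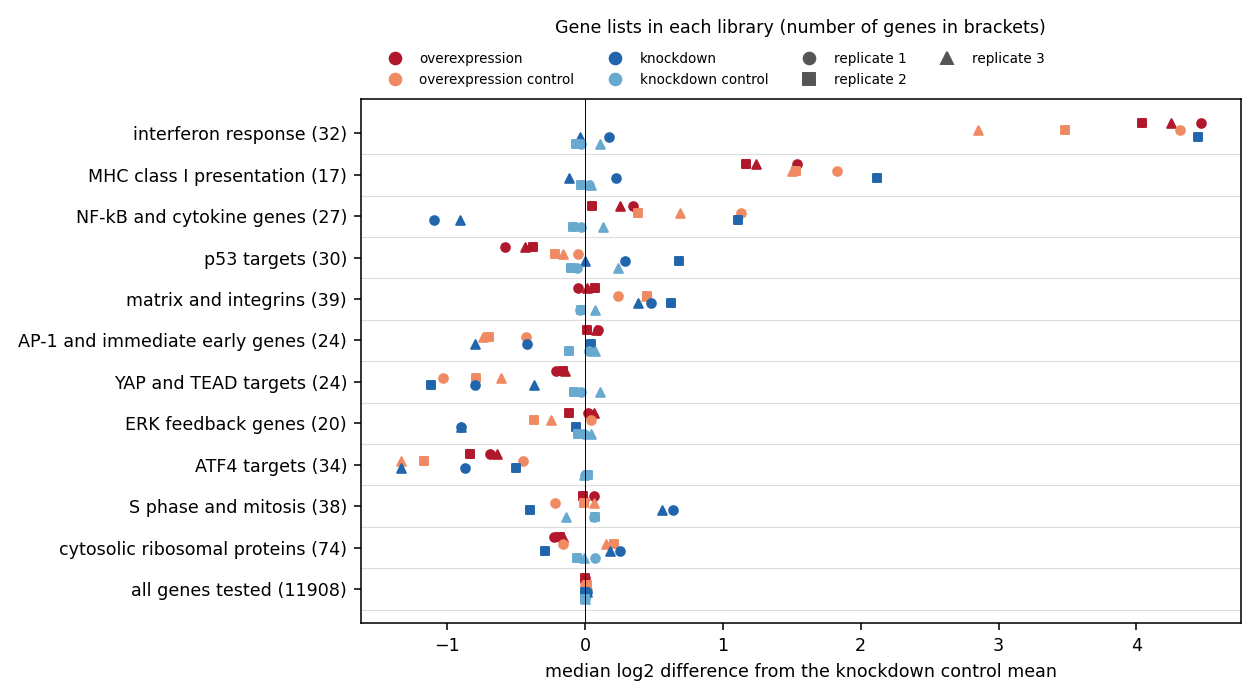
Median log2 difference from the knockdown control mean of 11 gene lists and of all genes tested (horizontal axis), 1 point per library, coloured by group and shaped by replicate number. For interferon response knockdown replicate 2 lies at 4.45 and the other knockdown libraries at 0.17 and -0.04, whereas for p53 targets all 3 knockdown libraries (0.29, 0.68 and 0.00) lie above all 3 overexpression libraries (-0.58 to -0.38).

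Genes of glutathione metabolism and ferroptosis, the subject of the series, were mostly not called. Of the 10 genes the study is known to have followed or that make glutathione, edgeR called 2 higher with overexpression and 0 lower. Over all genes the shares were 9.65% and 9.16%. At an unadjusted p below 0.05, 4 of the 10 were higher and 1 lower, and DESeq2 and limma called 0 lower. Since the study chose some of them on these samples, their direction is not independent evidence. Beside JUN, the other was NFE2L2, which encodes NRF2. It stood at 312, 274 and 280 CPM against 117, 188 and 131 CPM (log2 difference 0.99, SE 0.18, adjusted p = 0.00418), with controls of 200 ± 39.1 and 337 ± 16.4 CPM in the opposite order. CBS, which turns homocysteine into cystathionine and whose reads can be shared with its copy CBSL, was at 38.0, 38.8 and 48.8 CPM against 34.3, 50.1 and 27.9 CPM, overlapping between the groups (log2 difference 0.16, SE 0.24, adjusted p = 0.678), although its controls differed 4.05-fold (24.0 ± 7.37 and 97.0 ± 3.34 CPM). Without knockdown replicate 3 its log2 difference was -0.01. Without both knockdown replicate 2 and overexpression control replicate 1 it was 0.43, and CBS passed (adjusted p = 0.0456).

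The lipid peroxidase GPX4 was at 96.3, 105 and 96.1 CPM against 126, 117 and 121 CPM (log2 difference -0.29, SE 0.11, adjusted p = 0.0965). It was short of the threshold, and its libraries did not overlap, as for 35.7% of all genes tested. Without both knockdown replicate 2 and overexpression control replicate 1 it passed (log2 difference -0.32, adjusted p = 0.0426). The cystine transporter SLC7A11 was at 809, 586 and 739 CPM against 375, 464 and 507 CPM (log2 difference 0.66, SE 0.40, adjusted p = 0.28), and it passed without overexpression control replicate 1 (adjusted p = 0.0174), a library outside this comparison that enters through the shared estimate of the spread. The subunits of glutamate-cysteine ligase, GCLC and GCLM, were at log2 differences of 0.53 and 0.48 (adjusted p = 0.0792 and 0.123) and passed without knockdown replicate 3 (0.0123 and 0.0104). With that omission 4 of the 10 genes were higher. KEAP1, GSS and GSR differed by 0.31, -0.18 and -0.02 (adjusted p = 0.227, 0.169 and 0.956), and GSR was at 0.09 without knockdown replicate 3 and at 0.07 without overexpression replicate 2.

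Of 27 measured glutathione peroxidases, synthesis enzymes and transferases 1 was higher (9.65% over all genes), 3 lower (9.16%) and 23 did not pass. Between the controls 14 were higher (17.2% over all genes) and 1 lower (16.1%). The glutaredoxin GLRX was the higher one (85.0 ± 8.07 against 32.6 ± 5.02 CPM, adjusted p = 0.00109), with controls called in the same direction (85.6 ± 26.6 and 39.2 ± 1.39 CPM), and 2 and 3 were higher without knockdown replicates 2 and 3. The peroxidase GPX1 was lower in each overexpression library, at 137, 136 and 137 CPM against 228, 219 and 248 CPM (log2 difference -0.76, SE 0.08, adjusted p = 0.000358), and opposite in direction to its controls (0.38, adjusted p = 0.0061). The transferase GSTP1 was 1.58-fold lower (adjusted p = 0.00374) and not called between the controls. Among 28 ferroptosis suppressors 4 were higher and 2 lower (9.65% and 9.16% over all genes). Among 30 drivers 2 and 3 were, and among 36 NRF2 targets 4 and 1, NR0B1 included. Counts this small moved by more than 1.5 times with single libraries: for the suppressors 2 were higher without knockdown replicate 1 or overexpression replicates 1 or 3, and 1 was lower without any knockdown control, knockdown replicate 1, overexpression replicates 1 or 3 or overexpression control replicate 2. For the drivers 1 was higher without any overexpression replicate or knockdown control replicates 1 or 2, and 1 was lower without overexpression replicates 2 or 3. They numbered 4 higher and 5 lower without overexpression control replicate 1, and 5 lower without knockdown replicate 3. For the NRF2 targets 8 were higher without knockdown replicate 3, and the lower count was 2 without knockdown replicate 2 or overexpression control replicate 1 and 0 without any other single library. Between the controls 11 suppressors were higher and 3 lower, 8 and 3 drivers, and 15 and 1 NRF2 targets (17.2% and 16.1% over all genes). Of the members called between overexpression and knockdown, 2 suppressors, 0 drivers and 3 NRF2 targets were called in the same direction there. In the opposite direction there were 3, 3 and 0. The 3 NRF2 targets were NR0B1, ALDH3A1 and AKR1C2.

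Among 10 regulators of NRF2, edgeR called 4 higher (9.65% over all genes) and 0 lower, with 2 higher without overexpression replicates 1 or 3. Also 0 were lower at an unadjusted p below 0.05, by DESeq2 and by limma. Some members of the lists on glutathione, ferroptosis and NRF2 kept their call under all alternatives run. The small heat shock protein HSPB1 was at 159, 163 and 156 CPM against 390, 277 and 297 CPM (log2 difference -1.01, adjusted p = 0.00205), opposite to its controls (1.14). The ferrireductase STEAP3 was at 53.4, 55.5 and 55.9 CPM against 96.0, 79.7 and 98.0 CPM (log2 difference -0.73, adjusted p = 0.00118), with alike controls of 57.4 ± 4.37 and 53.6 ± 2.36 CPM. The NRF2 target OSGIN1, an oxidative stress growth inhibitor, was at 137, 122 and 119 CPM against 16.9, 16.8 and 36.2 CPM (log2 difference 2.44, SE 0.42, adjusted p = 0.00316), and was not called between the controls (-1.13, adjusted p = 0.053). MAFK, a small MAF protein that pairs with NRF2, was at 225, 287 and 262 CPM against 88.1, 96.6 and 68.4 CPM (log2 difference 1.61, adjusted p = 0.000297), opposite to its controls (-1.30). ALDH3A1, an aldehyde dehydrogenase abundant in A549, was 1.90-fold higher (adjusted p = 0.00437) and differed in the same direction between the controls (1.25).

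**Figure D5:**
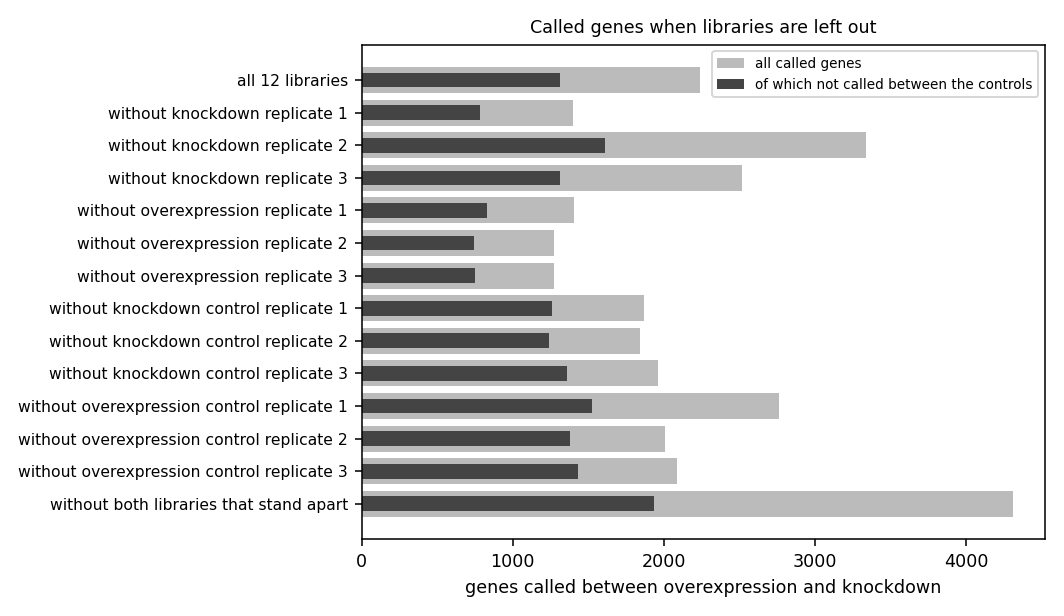
Number of genes called between overexpression and knockdown (grey bars, axis from 0) and how many of them were not called between the controls (dark bars), with all 12 libraries and with libraries left out. The count is 2240 with all libraries, 3335 without knockdown replicate 2 and 4306 without both libraries that stand apart (knockdown replicate 2 and overexpression control replicate 1), and between 1270 and 1406 when an overexpression library or knockdown replicate 1 is left out.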

How the data were processed

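RNA-seq of A549 cells gave 12 libraries, held in 1 table of transcripts. The authors deposited expected counts and FPKM per transcript for each library, per the file headers; FPKM are scaled to transcript length and library size. CPM in the report are rounded gene counts scaled to the TMM-adjusted library size. Per the submitters' processing notes, the tools were RSEM, StringTie 1.3.1, HISAT2 2.0.5, Bowtie2 2.2.8 and fastp. The same notes name mouse builds although the identifiers belong to human transcripts, and these builds were not used. Use of strand is not given in the sources used here, and without it a gene and its antisense partner cannot be told apart.

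Of 96247 rows, 82270 carry Ensembl identifiers, and these were summed per symbol to 19647 genes and rounded to whole counts. The other 13977 rows are assembled transcripts, with 13.3% to 15.4% of the expected counts, and were left out. Gene coordinates are from GENCODE 29 (GRCh38). The 11908 genes that reached an FPKM of 1 in 3 libraries were tested with edgeR 4.0.16 in R 4.3.3 (TMM scaling, robust glmQLFit and glmQLFTest) in 1 fit of all 12 libraries with a mean per group, leaving 8 residual degrees of freedom and a biological coefficient of variation of 24.5%. Adjusted p-values are Benjamini-Hochberg over all genes tested. SE is the absolute log2 difference divided by the square root of F and is unreliable at low counts. The floor of 3 counts covers counting error only, as PCR copies of 1 molecule may be counted separately. Alternatives were RLE scaling, DESeq2 1.42.0, limma 3.58.1 on log2(FPKM + 1) and log2(FPKM + 0.1), which understates the differences of low genes, no filter, the 6 libraries alone, a replicate block, assembled transcripts added, and libraries left out.

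The members, the 35 gene lists and the comparisons were chosen with earlier results of these data known. Named genes are NR0B1, the study's genes, the largest differences in each class by behaviour of the controls among genes with 2-fold or larger differences and no overlap, and up to 4 members of each list with the smallest adjusted p (2 with the highest FPKM where none passed); some genes taken by the rule are left unnamed. IFIT1, ISG15, MX1, HLA-B and CYR61 were added after their values were seen, as was the interferon response motif. On simulated counts for 11908 genes of overexpression against knockdown, 1.72%, 61.3% and 89.6% of genes changed 1.5-fold, 2-fold and 4-fold were recovered, with 5 false calls. Only 58, 75 and 67 genes were changed by these folds, far fewer than the 2240 called in the data. Adjustment is stricter when fewer genes change, so these rates do not carry over. Same-numbered overexpression and knockdown libraries did not deviate together, and in no pair of groups did all 3 same-numbered pairs correlate above 0.1, so the numbers were not used as pairs.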

Additional observations from a re-analysis of the deposited data

How the results depend on the processing

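NR0B1 kept its direction and call under all 21 alternatives run. The 2240 called genes became 1167 with the 6 libraries alone, 4306 without both libraries that stand apart (knockdown replicate 2 and overexpression control replicate 1), 2763 without the latter alone, and 1270 to 3335 as single libraries were left out. The 735 called by 2-fold or more became 461 with limma on log2(FPKM + 1), 1142 without both libraries, and 539 to 1042 with single omissions. The 1316 not called between the controls became 744 to 1612 with single omissions, and 1084 with an unadjusted p of 0.05 or more required between the controls. With replicate number as a block, 1970 genes were called; deviations of same-numbered overexpression and knockdown libraries correlated at -0.13, -0.07 and 0.04, so the numbers do not pair them. Of the calls between the controls 51.6% were higher in the overexpression control, and 40.2% with limma on log2(FPKM + 1) and 40.5% on log2(FPKM + 0.1).

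Of the 110 called genes chosen for naming beside NR0B1, some of which are left unnamed, 77 kept their call in every setting and 33 lost it in 1 or more. HTR1D, at 0 in the 3 knockdown libraries, turned to a log2 difference of -0.21 when assembled transcripts were added. Without knockdown replicate 2, CBS was at 0.43 and HLA-B at 2.99. CBS turned to -0.01 without knockdown replicate 3, GSR to 0.09 and 0.07 without knockdown replicate 3 and overexpression replicate 2, and HLA-B to -0.40, -0.45 and -0.22 without knockdown replicates 1 and 3 and overexpression replicate 1. Of 49 list counts above 0, 45 had a setting that moved them more than 1.5 times. At this depth and with 3 libraries a group, differences of 1.5-fold were rarely recovered on simulated counts. Far fewer genes were changed there than were called in the data, so the rate does not carry over.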

Other observations

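Lung and endoderm genes, a list that holds the mucin MUC5B beside transcription factors, did not move as 1 group. Of 17 measured genes of this list, 4 were higher with overexpression than in the knockdown (9.65% over all genes), 2 lower (9.16%) and 11 did not pass. The 4 higher genes were MUC5B, SOX9, GATA6 and FOXA1. SOX9, a progenitor factor of the distal airway, was at 51.7, 64.5 and 66.1 CPM with overexpression against 19.8, 34.1 and 19.6 CPM in the knockdown (log2 difference 1.31, adjusted p = 0.00292) and was called in the same direction between the controls (0.81, adjusted p = 0.0174). GATA6, a regulator of endoderm, was 2.29-fold higher (adjusted p = 0.00555) and not called between the controls. FOXA2, which specifies airway epithelium, was 1.95-fold lower (adjusted p = 0.00738) and not called between the controls. The lower count was 1 without knockdown replicate 1 or any overexpression replicate and 4 without overexpression control replicate 1.

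Of 43 nuclear genes of oxidative phosphorylation 4 were higher and 2 lower, shares at or below those over all genes (9.65% and 9.16%). SDHC, a subunit of succinate dehydrogenase, was at 169, 179 and 169 CPM against 115, 106 and 108 CPM (log2 difference 0.66, adjusted p = 0.000863), with the controls in the same direction (0.59). The lower count was 0 without any overexpression replicate, any knockdown control or knockdown replicate 1, 1 without knockdown replicate 3 or overexpression control replicate 3, and 7 without knockdown replicate 2. HERPUD1, which acts in degradation of proteins from the endoplasmic reticulum, was at 101, 137 and 124 CPM against 51.3, 67.3 and 52.5 CPM (adjusted p = 0.000902), and was called in the same direction between the controls (0.80, adjusted p = 0.00262). MTAP, the neighbour of the deleted CDKN2A locus, was low in all 12 libraries, at 7.67 to 8.87 CPM with overexpression and 12.9 to 17.5 CPM in the knockdown (adjusted p = 0.011, and 0.0508 without overexpression replicate 3).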
